A study of Rattus norvegicus with 10 samples.

Results

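Progress of a β-cell out of G1 depends on a small set of genes, and 10 of them were followed here: the D-type cyclins Ccnd1, Ccnd2 and Ccnd3, the kinases Cdk4 and Cdk6, the inhibitors Cdkn1a, Cdkn1b, Cdkn1c and Cdkn2c, and the retinoblastoma gene Rb1. They were chosen by name as G1 regulators of β-cell replication, by a rule that uses no measured value but was written with earlier results of these data known, and are 10 of the 23918 genes in the deposited table. The cells were β-cells of adult Sprague-Dawley rats, sorted from dispersed islets by their autofluorescence. In one group the transcriptional repressor Scrt1 was knocked down by a mixture of 4 siRNAs (siScrt1, replicates A to E), and the other received a negative control siRNA (siCtrl, replicates 1 to 5). All cells received Lipofectamine RNAiMAX and were cultured on an extracellular matrix from a rat bladder cancer line, and RNA was extracted 48 h after transfection. The knockdown was transient and reached whatever share of cells took up the siRNA, and the labels do not state whether the 5 libraries of a group came from separate animals, so p-values measure the spread between these libraries, which may be technical. In bulk RNA, fewer cells of a type and less RNA per cell cannot be told apart.

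Before a cell commits to DNA replication, D-type cyclins bind CDK4 or CDK6, and the complexes phosphorylate the retinoblastoma protein, which then releases E2F transcription factors that switch on S-phase genes. Inhibitors of the INK4 family, such as p18 from Cdkn2c, block CDK4 and CDK6 directly, whereas p21, p27 and p57, from Cdkn1a, Cdkn1b and Cdkn1c, bind a wider range of cyclin-CDK complexes. Adult β-cells rarely divide. In rodents, cyclin D2 and CDK4 are the cyclin and kinase on which postnatal growth of β-cell mass depends most, and CDK6 is scarce in rodent islets.

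Libraries held between 11901342 and 17444034 recovered reads. Scrt1 (ENSRNOG00000025594) was at 11.7 to 18.2 CPM (reads relative to the library total) in the siCtrl libraries and at 1.57 to 5.55 CPM in the siScrt1 libraries, a log2 fold change of -2.06 ± 0.308 (SE, n = 5 per group, limma adjusted p = 0.00618). All 11 β-cell markers with a row in the table were detected in every library, and the insulin genes Ins1 and Ins2 took at least 8.88% of the reads of each. Summed markers of α-cells lay between 733 and 1215 CPM in siCtrl and between 686 and 1034 CPM in siScrt1, and those of duct cells between 186 and 266 CPM and between 200 and 265 CPM. Markers of δ- and PP-cells summed to 18.5 to 83.0 CPM and to 22.1 to 89.6 CPM, those of immune cells to 5.70 to 8.37 CPM and to 5.04 to 8.83 CPM, those of acinar cells to 1.53 to 4.39 CPM and to 2.09 to 3.95 CPM, and those of endothelial cells to 0.462 to 1.17 CPM and to 0.660 to 1.31 CPM. Mesenchymal markers summed to 3.82 to 16.9 CPM and to 4.79 to 30.6 CPM, with siCtrl replicate 4 and siScrt1 replicate D above the others and 6 of the 7 genes at 0 reads in at least 1 library. No marker was at 0 in all libraries, and no list passed the test between groups (exact two-sided permutation tests, lowest p = 0.452, adjusted p = 0.881 over 8 lists). The part of these cells in the values below was not tested.

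Of the 10 genes, 9 passed the filter on low counts and none was called changed after Scrt1 knockdown (limma, adjusted p under 0.05). Over all 12941 genes tested, 136 were called, or 1.05%, so that a set of this size would hold few calls at the background rate. At an unadjusted p under 0.05, the test and limma-voom each reached 1 of the 9, Ccnd2, where 11.1% of all genes were reached. With libraries of the same number taken as pairs, 259 of the 12941 genes were called (limma) and again none of the 9. In that fit 2078 of the 12941 genes had an unadjusted p under 0.05, among them 2 of the 9, Ccnd2 and Cdkn1a. The median log2 fold change of the 9 was 0.16 with 7 of 9 above 0, beside a median of 0.0035 over all genes tested, of which 6601 of 12941 were above 0. The 9 estimates ran from -0.06 for Cdkn2c to 0.38 for Cdkn1a.

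**Figure D1:**
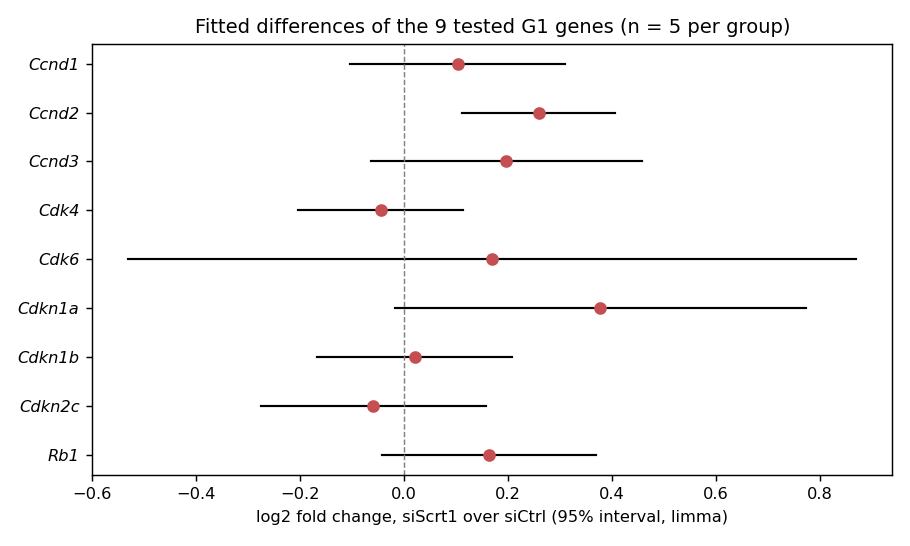
Log2 fold changes of the 9 tested G1 genes, siScrt1 over siCtrl, on the horizontal axis, with 1 row per gene. Points are limma estimates and lines their 95% intervals (n = 5 per group). The interval of Ccnd2 runs from 0.11 to 0.41 and lies above 0, and those of the other 8 genes include 0.

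The genes were present at very different levels. Per transcript length, as TPM in the siCtrl libraries, Ccnd2 was highest at 232 ± 16.8 (SD, n = 5), higher than 98.4% of all genes tested by mean TPM over the 10 libraries. Ccnd1 at 70.5 ± 9.50 TPM and Cdk4 at 70.0 ± 6.09 TPM came next and did not differ beyond their spread, although Ccnd1 was the higher in 8 of 10 libraries. Cdkn1b followed at 50.4 ± 6.79 TPM. Thus the cyclins D2 and D1, their kinase partner and p27 made up the abundant end of the set. TPM depend on the annotated lengths, 912 bases for Cdk4 and 3809 for the longer Ccnd1 transcript. In CPM the siCtrl means of Cdk4 and Ccnd1 were 56.8 and 286.

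A second tier held Ccnd3 at 22.9 ± 4.53 TPM, Rb1 at 15.6 ± 1.79 TPM, Cdkn1a at 12.4 ± 1.74 TPM and Cdkn2c at 11.3 ± 0.830 TPM. Neighbours in this tier overlapped in range. Ccnd3 exceeded Rb1 in 10 of 10 libraries, Rb1 exceeded Cdkn1a in 9 and Cdkn1a exceeded Cdkn2c in 8. Cdk6 lay far below at 0.599 ± 0.217 TPM, 18.9-fold under Cdkn2c, and Cdkn1c was last at 0.128 ± 0.108 TPM. The complete order held in 5 of the 10 libraries.

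**Figure D2:**
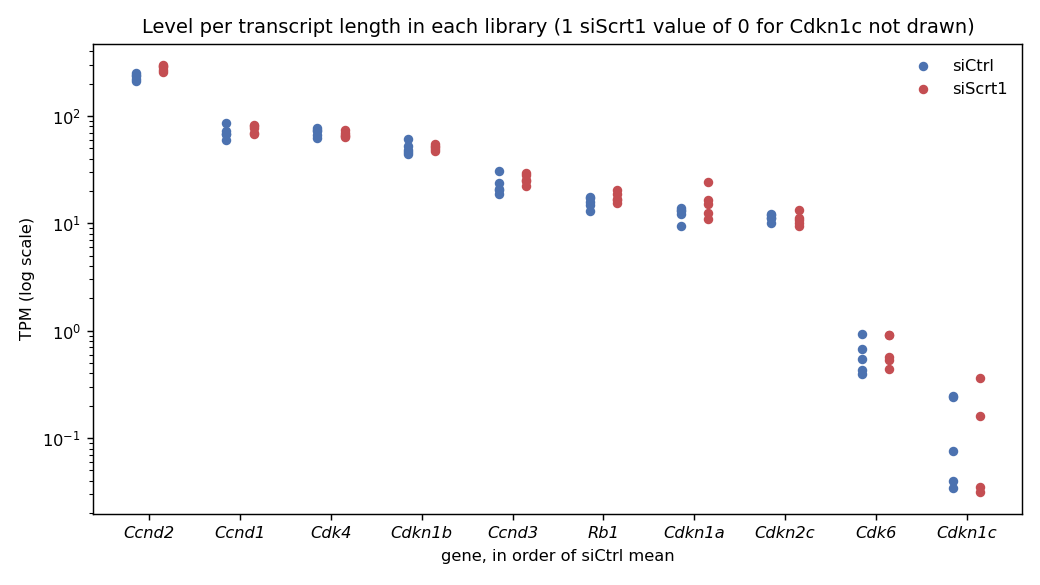
TPM of each G1 gene in each library on a log scale, with genes ordered from left to right by their siCtrl mean and 1 point per library, coloured by group. The Cdkn1c value of 0 in siScrt1 replicate A is not drawn. Ccnd2 stands above the other genes in all 10 libraries, and Cdk6 and Cdkn1c stand below 1 TPM in all of them.

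Ccnd2 (ENSRNOG00000057710), the cyclin with the leading role in rodent β-cells, was the gene of the set whose groups were apart. Control libraries 1 to 5 had 320, 311, 328, 313 and 330 CPM. The siScrt1 libraries A to E had 370, 385, 391, 385 and 344 CPM. In CPM, every siScrt1 library lay above every siCtrl library, and the siCtrl libraries were close together. On the scaled estimated counts that entered the fit, the siCtrl libraries were less close. They deviated by -0.13 to 0.13 log2 units from their group mean, and the siScrt1 libraries by -0.12 to 0.084.

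Mean Ccnd2 CPM was 320 ± 8.89 for siCtrl and 375 ± 18.8 for siScrt1 (SD, n = 5). The fitted log2 fold change was 0.26 ± 0.0679 (SE), with a 95% interval from 0.11 to 0.41, but it did not pass the threshold over all genes (limma, adjusted p = 0.115). A lack of overlap in CPM between the groups was seen for 2.96% of all genes tested, and for 1 of the 9 genes here. Scaling by cyclic loess, which aligns the libraries across the range of intensities, brought Ccnd2 past the threshold with a log2 fold change of 0.29 (adjusted p = 0.0473, range over 22 alternatives 0.0473 to 0.366). The table holds 1 Ccnd2 transcript, of 1414 bases, on which all 4029 to 6723 reads per library were counted as whole reads.

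Ccnd1 (ENSRNOG00000020918), the D cyclin that many mitogenic signals induce, varied more between libraries than between groups. It was at 232, 315, 326, 281 and 278 CPM across control libraries 1 to 5 and at 257, 316, 323, 325 and 277 CPM across siScrt1 libraries A to E. The groups overlapped over most of their range. The log2 fold change was 0.10, with a 95% interval from -0.10 to 0.31 (limma adjusted p = 0.736). Of its 2 transcripts, the longer took 95.5% ± 0.721 of the gene's reads in siCtrl libraries and 95.5% ± 1.57 of those in siScrt1 libraries (SD, n = 5), and neither passed the transcript test.

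Ccnd3 (ENSRNOG00000050258), the third D cyclin, was at 43.9, 39.1, 55.6, 41.8 and 40.8 CPM across control libraries 1 to 5. It was at 45.7, 55.6, 52.1, 45.3 and 47.8 CPM across siScrt1 libraries A to E. All siScrt1 values exceeded 4 of the 5 siCtrl values, and siCtrl replicate 3 reached the highest siScrt1 library. The log2 fold change was 0.20, with an interval from -0.06 to 0.46 (limma adjusted p = 0.586).

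Added over the 3 genes, D cyclin TPM was 326 ± 25.9 in siCtrl and 380 ± 22.5 in siScrt1 (SD, n = 5), with group ranges of 303 to 368 and 351 to 406 that overlapped. These TPM were not brought to a common library total. Since the totals ran from 821278 to 1153952, a difference between groups in summed TPM also carries the scaling of each library. Ccnd2 was the main part of this pool in both groups. It supplied 71.4% ± 2.32 of it in siCtrl and 73.3% ± 1.23 in siScrt1, and Ccnd3 supplied 6.97% ± 0.810 and 6.84% ± 0.513. For each TPM of Cdk4 and Cdk6 together there were 4.63 ± 0.462 TPM of D cyclin in siCtrl and 5.54 ± 0.264 in siScrt1. This ratio ran from 4.00 to 5.18 in siCtrl and from 5.24 to 5.83 in siScrt1 without overlap, which is a description of values that contain Ccnd2. Of all the sums, shares and ratios of the set that were computed, it was the only one whose groups did not overlap.

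Cdk4 (ENSRNOG00000025602) encodes the catalytic partner of the D cyclins. It was at 55.9, 56.8, 56.2, 64.0 and 51.0 CPM across control libraries 1 to 5 and at 48.6, 58.4, 53.8, 55.4 and 52.5 CPM across siScrt1 libraries A to E. The groups overlapped, and the highest and the lowest of the 10 values came from different groups. The fitted log2 fold change was -0.04, with an interval from -0.20 to 0.11 (limma adjusted p = 0.872), the narrowest interval of the set after that of Ccnd2.

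Cdk6 (ENSRNOG00000009258), the other D cyclin kinase, was measured on 7.8 to 17.8 reads per library. In siCtrl it ran from 0.595 CPM (95% exact Poisson interval 0.253 to 1.18) to 1.31 CPM (0.773 to 2.09), and in siScrt1 from 0.635 CPM (0.301 to 1.18) to 1.29 CPM (0.763 to 2.05). These intervals cover counting error only. The log2 fold change was 0.17 with an interval from -0.53 to 0.87 (limma adjusted p = 0.891), so that at this depth a change in either direction by a large part of its level was not detectable. Cdk4 made up 99.2% ± 0.296 of the TPM of both kinases in siCtrl and 99.0% ± 0.345 in siScrt1.

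Among the inhibitors, Cdkn1a (ENSRNOG00000000521), whose product p21 is induced by p53 and by many forms of stress, had the largest estimate. It was at 17.6, 24.4, 15.8, 20.4 and 14.5 CPM across control libraries 1 to 5. It was at 21.4, 35.8, 19.3, 26.6 and 16.9 CPM across siScrt1 libraries A to E. Values were spread widely in both groups, siScrt1 replicate B was highest, and the groups overlapped.

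Cdkn1a averaged 18.5 ± 3.94 CPM for siCtrl and 24.0 ± 7.50 CPM for siScrt1 (SD, n = 5), a fitted log2 fold change of 0.38 with an interval from -0.02 to 0.77 (limma adjusted p = 0.472). Without siScrt1 replicate B the estimate was 0.22. When libraries with the same number in the deposited table were compared, the siScrt1 library was the higher in 5 of 5 pairs. For Ccnd2 the same count follows under any pairing, because its groups do not overlap in CPM. The share of all genes with such a count was not computed. The longer of the 2 Cdkn1a transcripts took 83.4% ± 4.78 of the gene's reads in siCtrl and 86.9% ± 2.26 in siScrt1, and was estimated at 0.44 log2 units (limma adjusted p = 0.532). The shorter one was at 0.07 on the same scale (limma adjusted p = 0.963). Of all 17585 transcripts tested, 73 or 0.415% were called, and none of those of the 10 genes. The count fell to 29 with libraries paired by number and to 16 without siCtrl replicate 5 or siScrt1 replicate E.

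The region around the start of 6 of the 10 genes is held in the RefSeq table for rat assembly GRCr8, as 250 bases before the start and 50 after it: Ccnd3, Cdk4, Cdkn1a, Cdkn1b, Cdkn2c and Rb1. They were searched on both strands for CAGGTG, the E-box core bound by Scratch and Snail repressors, for CACGTG, the E-box of Myc proteins, and for TTTCCCGC or TTTGGCGC, forms of the E2F site. The 3 regions with a match are printed here to show where these letters stand relative to genes that a repressor of the Scratch family, Myc or the Rb pathway itself could concern, with the matched letters in capitals. The build differs from that of the expression data. Cdkn1a lies at chr20:7150682-7150981 on the plus strand, Cdk4 at chr7:64771203-64771502 on the plus strand and Rb1 at chr15:54911808-54912107 on the minus strand.
Cdkn1a: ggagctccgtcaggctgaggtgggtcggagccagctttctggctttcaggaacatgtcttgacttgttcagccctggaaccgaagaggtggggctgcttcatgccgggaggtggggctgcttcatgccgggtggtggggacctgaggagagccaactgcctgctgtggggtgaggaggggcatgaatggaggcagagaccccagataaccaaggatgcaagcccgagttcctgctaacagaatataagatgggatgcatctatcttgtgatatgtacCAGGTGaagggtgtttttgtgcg
Cdk4: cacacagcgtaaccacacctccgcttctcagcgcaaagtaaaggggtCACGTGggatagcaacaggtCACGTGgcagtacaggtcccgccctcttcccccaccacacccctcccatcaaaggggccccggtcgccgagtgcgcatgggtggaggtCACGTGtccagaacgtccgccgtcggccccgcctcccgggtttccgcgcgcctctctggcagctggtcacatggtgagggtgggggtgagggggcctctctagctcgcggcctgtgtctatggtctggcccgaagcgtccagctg
Rb1: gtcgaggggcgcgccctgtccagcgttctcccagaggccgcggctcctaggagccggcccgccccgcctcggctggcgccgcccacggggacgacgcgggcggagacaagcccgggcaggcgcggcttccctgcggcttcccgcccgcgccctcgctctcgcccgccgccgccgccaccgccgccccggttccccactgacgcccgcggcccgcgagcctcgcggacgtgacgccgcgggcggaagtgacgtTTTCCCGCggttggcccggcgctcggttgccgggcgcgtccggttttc

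CAGGTG stood in 1 of the 6 regions, that of Cdkn1a, with its first base at position 28 of the transcript, and in 18.8% of all 33469 regions of the same length. CACGTG stood 3 times in the region of Cdk4, at positions -203, -183 and -95 relative to the start, and at least once in 6.42% of all regions. Regions with at least 3 copies were 0.0568% of all. The E2F letters stood in the region of Rb1, from position 3 of the transcript, and in 1.45% of all regions. Ccnd3, Cdkn1b and Cdkn2c held none of these letters in this window. A match is a description of the sequence and not a bound site.

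Cdkn1b (ENSRNOG00000007249) encodes p27, the inhibitor that accumulates in resting cells and is removed largely by protein turnover. It was at 81.2, 115, 73.5, 83.4 and 95.4 CPM across control libraries 1 to 5 and at 85.7, 80.0, 83.0, 96.9 and 94.6 CPM across siScrt1 libraries A to E. All siScrt1 libraries fell within the siCtrl range. The log2 fold change was 0.02, with an interval from -0.17 to 0.21 (limma adjusted p = 0.954), while the mean CPM was lower in siScrt1 (88.1 ± 7.36) than in siCtrl (89.7 ± 16.1), so the data gave it no direction.

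Cdkn2c (ENSRNOG00000008956), the INK4 inhibitor p18, was at 13.4, 18.1, 14.9, 16.0 and 17.0 CPM across control libraries 1 to 5. The siScrt1 libraries A to E had 12.5, 13.6, 14.4, 19.2 and 15.2 CPM. The groups overlapped, and siScrt1 held both the lowest and the highest value. The log2 fold change was -0.06, with an interval from -0.28 to 0.16 (limma adjusted p = 0.878).

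Cdkn1c (ENSRNOG00000059500), the gene of p57 and an imprinted gene in mammals, was close to the limit of detection. The siCtrl libraries held 6, 2, 1, 7 and 1 reads and the siScrt1 libraries 0, 1, 4, 12 and 1. A count of 0 in siScrt1 replicate A allows a level of up to 0.252 CPM (3 reads), for counting error only. The gene did not pass the filter and was not in the fit. Its mean level was 0.243 ± 0.202 CPM for siCtrl and 0.241 ± 0.327 CPM for siScrt1 (SD, n = 5, exact two-sided permutation test, p = 0.992). The 12 reads of siScrt1 replicate D were all placed on a transcript of 2041 bases that had no read in any other library, while the reads of the others were on one of 1870 bases.

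Summed over the 4 inhibitors, the level was 74.2 ± 7.67 TPM in siCtrl and 78.0 ± 4.10 TPM in siScrt1, with ranges of 67.6 to 87.2 and 72.4 to 82.6. As for the D cyclins, these TPM were not brought to a common library total, so the sums give no direction between groups. Shares and ratios within a library do not depend on that total. Cdkn1b supplied 67.8% ± 2.73 and 65.6% ± 5.22 of the inhibitor sum, Cdkn1a 16.8% ± 2.46 and 20.3% ± 5.94, and Cdkn2c 15.3% ± 1.24 and 14.0% ± 1.54 (SD, n = 5). Thus p27 was the main inhibitor transcript in both groups. D cyclin TPM was 4.44 ± 0.705 times inhibitor TPM in siCtrl and 4.89 ± 0.454 times in siScrt1, with overlapping ranges.

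Rb1 (ENSRNOG00000016029), the pocket protein that the D cyclin kinases phosphorylate, was at 47.3, 61.7, 40.8, 53.8 and 58.1 CPM across control libraries 1 to 5. The siScrt1 libraries A to E had 51.9, 49.2, 53.6, 64.5 and 65.9 CPM. The siScrt1 libraries D and E were the highest, and the rest lay within the siCtrl range. The log2 fold change was 0.16, with an interval from -0.04 to 0.37 (limma adjusted p = 0.563).

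**Figure D3:**
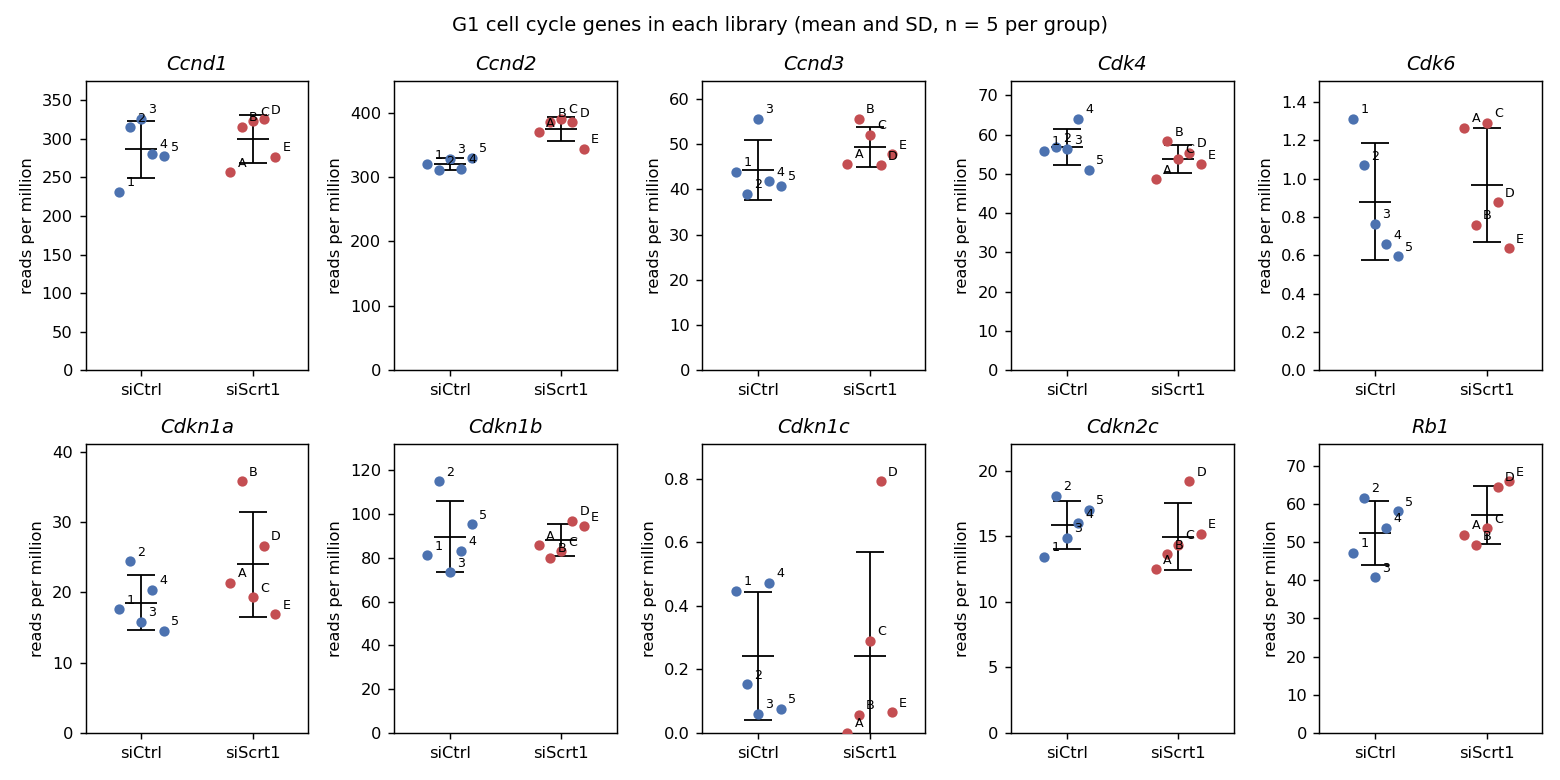
CPM of each of the 10 G1 genes in each library, 1 panel per gene with its own scale from 0. Points are libraries, labelled with their replicate, and bars show the mean and SD of 5 libraries. In the Ccnd2 panel the siScrt1 libraries, at 344 to 391, sit above the siCtrl libraries, at 311 to 330, and in the other panels the groups overlap.

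How the genes varied among libraries of one group was examined after each scaled estimated count was set against its own group mean, on the log2 scale, over the 10 libraries. The pairs were not computed on CPM, which rank the libraries differently. For Ccnd2 in siCtrl, replicate 3 had the highest scaled value (0.13 above the group mean), whereas in CPM replicate 5 was highest, at 330 against 328. All 36 pairs of the 9 genes were computed, and p-values came from all reorderings of the libraries within groups (exact permutation, adjusted over the 36 pairs). Ccnd2 and Ccnd3 deviated in the same direction, with r = 0.81 (rho = 0.83, p = 0.00951, adjusted p = 0.0856). Cdkn1b and Rb1 did the same, with r = 0.82 (rho = 0.83, p = 0.00611, adjusted p = 0.0733). Between these pairs the sign was opposite. Ccnd2 against Rb1 gave r = -0.85 (rho = -0.85, p = 0.00569, adjusted p = 0.0733), and Ccnd3 against Rb1 gave r = -0.83 (rho = -0.73, p = 0.00514, adjusted p = 0.0733). No pair passed 0.05 after adjustment. These reorderings treat the 10 libraries as independent, although same-numbered libraries of both groups tended to deviate together, least so for number 2 (r = 0.13). When same-numbered libraries were reordered as one, in 120 ways, the exact permutation p was 0.0167 for Ccnd2 and Ccnd3, 0.00833 for Cdkn1b and Rb1, 0.0167 for Ccnd2 and Rb1 and 0.025 for Ccnd3 and Rb1, unadjusted, and 0.00833 is the smallest it can give.

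Without the 2 libraries farthest from the median of the first gene, r was 0.87 for Ccnd2 and Ccnd3, 0.80 for Cdkn1b and Rb1, -0.73 for Ccnd2 and Rb1 and -0.61 for Ccnd3 and Rb1. In siCtrl replicate 3, Ccnd2 and Ccnd3 lay above and Cdkn1b and Rb1 below their group means, and in siCtrl replicate 2 it was the reverse. The libraries also differed in their share of insulin reads and in depth. Of 27 relations of the 9 genes with insulin share, depth and mesenchymal markers, the highest in size was that of Ccnd1 with insulin share (r = 0.71, rho = 0.66, exact permutation p = 0.0419, adjusted p = 0.364), and without the 2 farthest libraries it was 0.38. Cdk4 gave r = 0.71 with depth (rho = 0.85, exact permutation p = 0.0246, adjusted p = 0.364) and 0.57 without the 2 farthest libraries. Insulin share gave r = 0.31 with Ccnd2, 0.56 with Ccnd3, -0.62 with Cdkn1b and -0.42 with Rb1. The part of these library measures and of the scaling between libraries in the pairs was not tested.

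**Figure D4:**
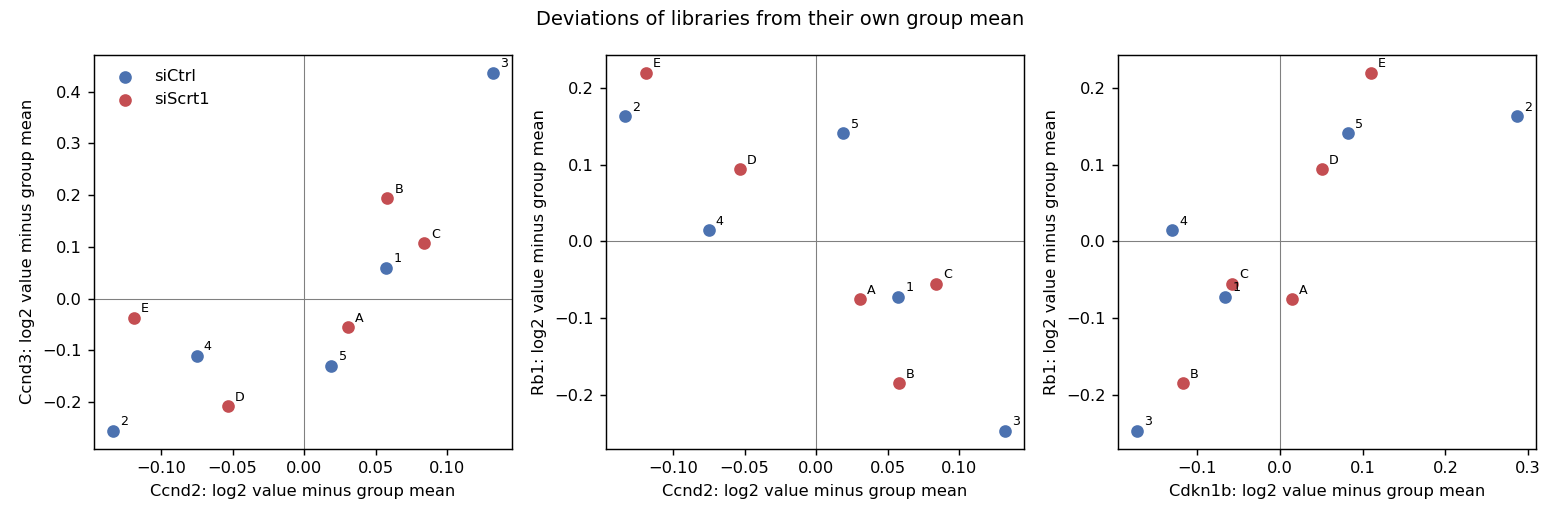
Deviation of each library from its own group mean, in log2 units of scaled estimated counts on both axes, for Ccnd2 against Ccnd3, Ccnd2 against Rb1 and Cdkn1b against Rb1. Points are the 10 libraries, coloured by group and labelled by replicate. The first and the last panel rise (r = 0.81 and 0.82) and the middle panel falls (r = -0.85), with siCtrl replicates 2 and 3 near opposite ends.

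Over the whole table, the genes whose deviations were most like those of Ccnd2 across the 10 libraries were Fam189b (r = 0.98), Vmac (r = 0.97) and Sipa1l1 (r = 0.95). These values are the top of a search over all genes tested and carry no p.

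The genes that act around this set were given in 8 lists by role. Of 87 genes listed, 85 had a row and 77 passed the filter, and E2f1 and Cdkn2d were not analysed here. None of the 77 was called (limma), beside 1.05% of all genes, and 7 had an unadjusted p under 0.05, or 9.09%, beside 11.1% of all genes. Their median log2 fold change was 0.0095 with 42 of 77 above 0, against 0.0035 over all genes.

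Upstream of the cyclins, 18 of 18 regulators were tested and 13 were above 0, with a median of 0.09. The most abundant were Ghr, the growth hormone receptor (log2 fold change -0.20, limma adjusted p = 0.550), and Prlr, the prolactin receptor that drives β-cell replication in pregnancy. Prlr was at 175 ± 12.3 CPM in siCtrl and 141 ± 27.6 CPM in siScrt1 (log2 fold change -0.30, limma adjusted p = 0.444). Cish, a feedback inhibitor induced by the same receptors and named here after its values were seen, was at 10.9 to 14.1 CPM in siCtrl and at 14.5 to 15.7 CPM in siScrt1, without overlap (log2 fold change 0.32, limma adjusted p = 0.174). It was the 1 gene without overlap among the 77 related genes tested, where 2.96% of all genes tested had none. Foxo3, a factor that favours Cdkn1b transcription and also named after its values were seen, gave 0.27 (limma adjusted p = 0.379).

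At the level of protein turnover, 10 of 10 genes were tested with a median of -0.03. Skp1, a core part of the ubiquitin ligase that removes p27, gave -0.06 (limma adjusted p = 0.793), and Cdc37, a chaperone partner that loads CDK4, gave 0.13 (limma adjusted p = 0.608). Cul1, the scaffold of the same ligase, named after its values were seen, was at 137 ± 16.9 CPM in siCtrl and 112 ± 9.61 CPM in siScrt1 (log2 fold change -0.25, limma adjusted p = 0.215). The 12 p53 target genes, all tested, had a median of -0.04 with 5 above 0. Cdkn1a, another p53 target, was estimated at 0.38, with an interval from -0.02 to 0.77. The part of p53 in these values was not tested. The most abundant of the 12 were Ccng1, which gave -0.23 (limma adjusted p = 0.327), and Btg2, an antiproliferative gene, which gave 0.09 (limma adjusted p = 0.659). Aen, an apoptosis-related nuclease gene named after its values were seen, gave -0.16 (limma adjusted p = 0.358).

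Among the partners of Rb1, the E2F and DP factors (7 of 10 tested) had a median of 0.03, with Tfdp1, the DP partner, at -0.09 (limma adjusted p = 0.706) and E2f4, a repressor E2F, at 0.15 (limma adjusted p = 0.491). The other pocket proteins and DREAM subunits (7 of 7 tested) had a median of -0.06, with Rbbp4 at -0.18 (limma adjusted p = 0.454) and Lin52 at -0.29 (limma adjusted p = 0.613). For the cyclin E and A axis with CDK2 (7 of 8 tested) the median was -0.05, with the subunits of the CDK-activating kinase Ccnh at -0.10 (limma adjusted p = 0.784) and Cdk7 at -0.04 (limma adjusted p = 0.901). Of the other inhibitors only Cdkn2a and Cdkn2b were tested, both INK4 genes. They gave 0.43 and 0.03 (limma adjusted p = 0.709 and 0.942), and Cdkn2a was at 0.661 ± 0.291 CPM in siCtrl, a low level.

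Downstream, 14 of 18 E2F target and S-phase genes passed the filter, and 11 of these were above 0 with a median of 0.14. The genes that failed the filter held few reads, for example 0 to 8.6 for Rrm2 and 3 to 16 for Mcm3. The 2 most abundant, Pcna, the sliding clamp of DNA polymerase, and Rrm1, a ribonucleotide reductase subunit, gave -0.04 and -0.13 (limma adjusted p = 0.911 and 0.511). Mcm4, a subunit of the replicative helicase named after its values were seen, was the one gene of this list with an unadjusted p under 0.05 and lay in the other direction, at 35.2 ± 4.42 CPM for siCtrl and 28.5 ± 2.92 CPM for siScrt1 (log2 fold change -0.27, limma adjusted p = 0.303). Pcna, Rrm1 and Mcm4 were the only tested genes of the list below 0. The largest estimates, named after their values were seen, were 0.80 for Mcm5, 0.72 for Cdc6 and 0.58 for Tk1, and none was called (limma). Mki67, the gene of the proliferation marker Ki-67, was at 5.68, 3.16, 5.14, 4.53 and 2.75 CPM across control libraries 1 to 5 and at 4.87, 2.24, 6.95, 4.49 and 3.52 CPM across siScrt1 libraries A to E. The groups overlapped, with a log2 fold change of 0.05 and an interval from -0.60 to 0.69 (limma adjusted p = 0.973).

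**Figure D5:**
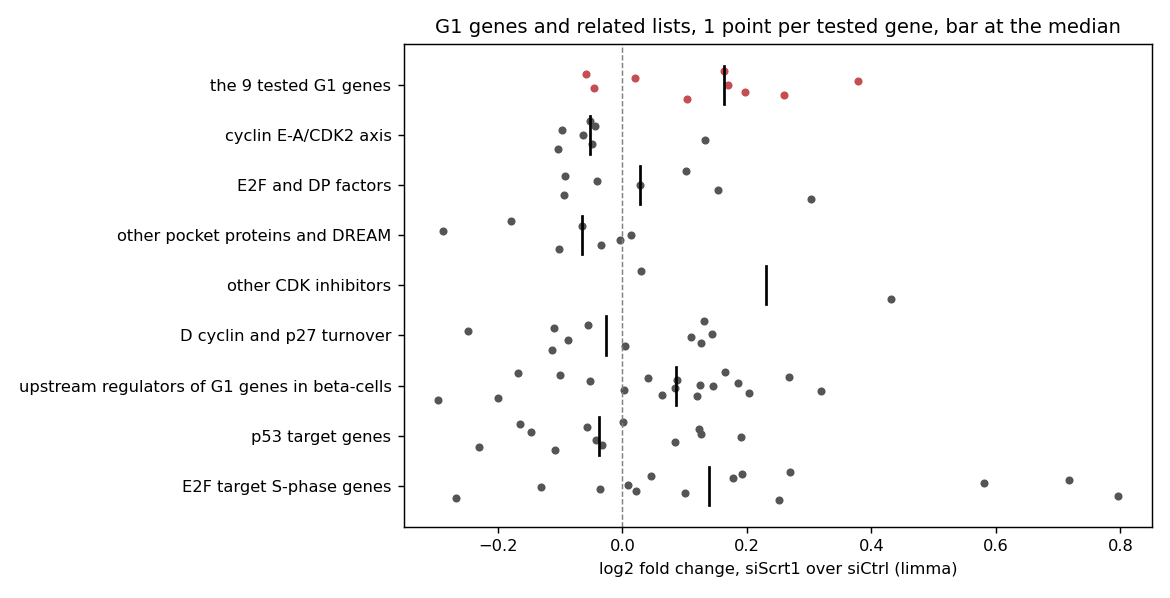
Log2 fold change, siScrt1 over siCtrl, of each tested gene on the horizontal axis, with the 9 tested G1 genes in the top row and the 8 related lists in the rows below. Points are genes and bars list medians. The G1 genes have a median of 0.16, and list medians run from -0.06 for the pocket proteins and DREAM subunits to 0.23 for the other CDK inhibitors, of which 2 genes were tested.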

How the data were processed

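RNA-seq of 10 libraries of rat β-cells was analysed, grouped by the genotype label in the sample records. The authors pseudo-aligned single-end reads to the Rnor6 transcriptome with kallisto and scaled the values with Sleuth. The submitters' processing notes also name FastQC and Trimmomatic, and versions are not given in the sources used here. The deposited signal values, estimated counts and TPM for 31715 transcripts, were treated as scaled signal and not as counts. Rows holding annotation only (9363) were left out. Reads shared between transcripts were split by the authors' tool, so isoform values carry an error that was not modelled.

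Each library's estimated counts were divided by the value of 1 read (0.842 to 1.26) to give recovered reads, of which 50.3% of values above 0 were whole within 0.01 reads, and CPM were computed from these. TPM sums per library ran from 821278 to 1153952. Scaled estimated counts, added up per gene, entered limma 3.58.1 (intensity trend, R 4.3.3) as log2(value + 0.5), and the model held the group alone. On this scale the fold change of a low gene is understated. Genes needed the CPM of 10 reads in a median library in 5 libraries and 15 reads in total, and transcripts 5 reads in 47% of libraries. P-values were adjusted over every feature tested (Benjamini-Hochberg), and 0.05 was the threshold. Marker sums and Cdkn1c were compared with scipy 1.17.1 by exact permutation (smallest p 0.00794), and plots were drawn with matplotlib 3.10.9. Fits were tested on simulated data.

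The members and lists were chosen with earlier results of these data known. Named genes were the members, Scrt1, Mki67, called genes and the 2 with the highest TPM of each related list, and the 3 genes most like Ccnd2, the member with both the highest TPM and the smallest p. Alternatives were other scalings, pseudocounts, TPM, filters, limma-voom, no intensity trend, a replicate block and leaving out each library. The sample labels share no numbers between groups, but the deposited table numbers the libraries 1 to 5 in each. Deviations of same-numbered libraries correlated at 0.35, 0.13, 0.23, 0.20 and 0.23, so the numbers were treated as pairs in the replicate block. Number 2 was the weakest, since siScrt1 replicate B correlated more with siCtrl replicate 3 (0.17) than with siCtrl replicate 2 (0.13). List genes without a row in the table (E2f1, Cdkn2d, G6pc2 and Pecam1) were not analysed here.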

Additional observations from a re-analysis of the deposited data

Results flagged for a closer look

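Among 82 groups of 5 values examined, 4 held a library that lay far from the other 4 of its group, and chance flags about 1 in 20 groups. The summed mesenchymal markers stood out in siCtrl replicate 4, at 16.9 CPM where the others lay between 3.82 and 6.94 CPM, and in siScrt1 replicate D, at 30.6 CPM where the others lay between 4.79 and 8.68 CPM. Both carry the number 4 in the deposited table. Summed immune markers reached 8.37 CPM in siCtrl replicate 3, where the other libraries of the group held 5.70 to 6.43 CPM. Ccnh reached 29.1 CPM in siCtrl replicate 2, where the other libraries held 18.8 to 21.5 CPM.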

How the results depend on the processing

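None of the 9 tested G1 genes or the 77 related genes was called under the 22 alternatives, except that 1 G1 gene, Ccnd2, was called under cyclic loess (log2 fold change 0.29, limma adjusted p = 0.0473). Cyclic loess called 119 of the 12941 genes tested. No transcript of the G1 genes was called under a pseudocount of 5, TPM, a stricter filter, the block or single omissions, nor under cyclic loess, limma-voom or no trend, the last 3 added after seeing the data. Scaling by median ratio or upper quartile was not run for transcripts. The 73 transcripts called became 29 under the block, 21 without the trend, 16 to 67 in single omissions and 5 without both libraries numbered 4. The replicate block gave Ccnd2 an adjusted p of 0.0585 and Cdkn1a one of 0.0539 (limma), raised the genes called from 136 to 259, and changed no call of a named gene. Without the intensity trend 76 genes were called. Leaving out single libraries gave 62 to 133 genes called, with a change by over 1.5 times without siCtrl replicates 4 (82) or 5 (77) or siScrt1 replicates B (83), C (87), D (62) or E (64), and the numbers of called G1 genes, related genes and G1 transcripts stayed at 0. Without both libraries numbered 4, an alternative chosen after seeing the data, 25 genes were called and Scrt1 was at -1.82 with an adjusted p of 0.0621 (limma), its only miss (-2.26 to -1.80 in single omissions). The cause was not tested. The sign of a log2 fold change turned in single omissions for Cdkn1b (-0.022 to 0.093), Cdk7 (-0.10 to 0.0036), Cdkn2b (-0.026 to 0.073) and Pcna (-0.070 to 0.018, and -0.075 without both libraries numbered 4), and without both libraries numbered 4 for Cdk4 (0.00048, against -0.089 to -0.011 in single omissions) and Cdkn1b (-0.024). The other 7 tested G1 genes kept their direction, but single omissions moved the estimates of Ccnd1 (0.044 without siCtrl replicate 1, 0.18 without siCtrl replicate 3), Ccnd3 (0.31 without siCtrl replicate 3), Rb1 (0.10 without siCtrl replicate 3), Cdk6 (0.044 without siCtrl replicate 5, 0.34 without siCtrl replicate 1) and Cdkn2c (-0.011 without siScrt1 replicate A, -0.13 without siScrt1 replicate D), which none of the tests called. Log2 ratios of summed markers turned for δ- and PP-cells (-0.22 to 0.40), acinar (-0.034 to 0.31), endothelial (-0.072 to 0.30), mesenchymal (-0.27 to 1.11) and immune cells (-0.092 to 0.12), none past its test. Depth limited Cdk6 and Cdkn1c most.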
